A study of Mus musculus with 62 samples.

Results

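The choroid plexus epithelium genes are 32 of the 27179 genes counted in brain tissue of Ts65Dn mice, a mouse model of Down syndrome with segmental trisomy. They were chosen by name, as genes that mark or serve this epithelium, with earlier results of these data known. Ttr, the most abundant of them, was taken as the gene that tracks the epithelium. RNA-seq read counts were examined in 15 libraries of whole forebrain at E17.5 (8 euploid, 7 Ts65Dn; the sex of the embryos is not given in the labels) and in 47 libraries of hippocampus at 6 weeks of age. The adult libraries came from 8 euploid, 7 Ts65Dn and 8 Ts65Dn;Brwd1+/- males and from 8 females of each genotype, without treatment. All animals were on the mixed DBA/2J x B6EiC3Sn/J background. Ts65Dn;Brwd1+/- mice came from Ts65Dn mothers and males heterozygous for the Brwd1 repro5 mutant allele, so that only Brwd1 is returned to its normal copy number.

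The choroid plexus is a folded sheet of ciliated epithelium over a vascular stroma that hangs into the ventricles. Its cells secrete cerebrospinal fluid by moving sodium, bicarbonate, chloride, potassium and water, form a blood to fluid barrier with tight junctions, and release carrier proteins, growth factors and enzymes into the fluid. It is not a part of the hippocampus or of the forebrain wall, but lies against the fimbria and along the ventricles of the forebrain, where it can be taken along in a dissection. Several of the genes are not restricted to it: Igf2 and Igfbp2 are also made in the meninges, Enpp2 in oligodendrocytes, and Otx2 in parts of the embryonic forebrain and midbrain. In such bulk tissue, fewer cells of a type and less RNA per cell cannot be told apart. Kcne2 (chr16:92292389-92298133) and Clic6 (chr16:92498147-92541241; both GRCm38) lie in the triplicated segment of chromosome 16 and are present in 3 copies in Ts65Dn and 2 in euploid mice, and the other 30 members lie in neither segment.

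Total counts ranged from 33584456 to 137059172 in the adult libraries and from 14863136 to 62618142 in those of the embryos. In 4 adult libraries the genes of the triplicated segments were at the euploid level, against their label (male Ts65Dn B145, male Ts65Dn;Brwd1+/- T35 and B138, female Ts65Dn;Brwd1+/- B136). In 2 more, Xist and Ddx3y went against the labelled sex (male Ts65Dn B88 and female euploid B85). The main results that rest on these 6 libraries are given with and without them. Levels, correlations, values for markers of other cells and the interaction of sex and genotype include them. All 32 members passed the filter on low counts in the adult comparisons and 31 in the embryos, where Cox8b, a muscle and brown fat form of a cytochrome c oxidase subunit, had between 0 and 25 counts a library.

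The promoters of the 4 members that followed Ttr most steeply in the adult hippocampus (Slc4a5, Tmem72, Kcne2 and Kcnj13, with slopes given below) are shown as an example of regulatory sequence in front of genes that move together. Each is the 250 bases before a RefSeq transcript start in GRCm38.p6, read along the gene's strand. Capitals mark the letters TAATC on either strand (GATTA on the strand shown), the core bound by homeodomain factors of the bicoid class, to which the member Otx2 belongs.
Slc4a5, chr6:83237125-83237374, plus strand: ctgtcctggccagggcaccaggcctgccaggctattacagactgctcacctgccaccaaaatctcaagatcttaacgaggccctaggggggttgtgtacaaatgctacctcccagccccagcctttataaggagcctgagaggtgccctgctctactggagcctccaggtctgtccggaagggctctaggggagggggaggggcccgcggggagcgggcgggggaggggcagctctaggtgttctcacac
Tmem72, chr6:116716759-116717008, minus strand: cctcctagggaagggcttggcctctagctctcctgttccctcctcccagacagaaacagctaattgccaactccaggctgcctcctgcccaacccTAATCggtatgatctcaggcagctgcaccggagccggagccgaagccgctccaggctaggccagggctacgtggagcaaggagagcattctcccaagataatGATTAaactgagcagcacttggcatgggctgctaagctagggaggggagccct
Kcne2, chr16:92292139-92292388, plus strand: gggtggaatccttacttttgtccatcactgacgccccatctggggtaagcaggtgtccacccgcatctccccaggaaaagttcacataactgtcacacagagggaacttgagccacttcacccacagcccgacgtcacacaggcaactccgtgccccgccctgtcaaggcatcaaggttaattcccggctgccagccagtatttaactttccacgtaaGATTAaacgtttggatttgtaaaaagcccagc
Kcnj13, chr1:87394730-87394979, minus strand: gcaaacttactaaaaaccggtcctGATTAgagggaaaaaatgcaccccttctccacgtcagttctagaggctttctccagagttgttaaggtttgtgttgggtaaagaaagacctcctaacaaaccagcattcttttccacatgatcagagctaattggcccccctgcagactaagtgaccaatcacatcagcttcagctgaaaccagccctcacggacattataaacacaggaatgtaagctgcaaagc

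The letters stood in the windows shown for Tmem72 (2 matches), Kcne2 and Kcnj13 (1 each) and not in that of Slc4a5. Only the windows of Kcne2 and Kcnj13 end at the start of the gene. That of Tmem72 overlaps the gene's start, and that of Slc4a5 lies inside the gene (chr6:83207580-83304945). The sequence before the first start of Slc4a5 was thus not shown. A second Kcne2 window, chr16:92295366-92295615, held 0 matches. Of 39 windows for the 25 members with an entry in the RefSeq promoter table, 15.4% held them, in 6 genes (Kcnj13, Tmem72, Ace, Otx2, Cab39l and Kcne2), against 19.8% of all 32851 windows. The letters were thus no more common in front of the members than elsewhere.

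Ttr, which encodes the transthyretin that carries thyroxine and retinol-binding protein into the cerebrospinal fluid, was the most abundant member per length in both tissues. Its median over the libraries was 499 CPM (read counts scaled to the size of the library) per kb of exon in the adult hippocampus and 883 in the E17.5 forebrain. Next in the adult tissue came Enpp2 at 168, Igfbp2 at 34.7 and Igf2 at 21.3 CPM per kb, and in the embryos Igfbp2 at 174.7, Igf2 at 84.1 and Enpp2 at 18.7. The growth factor Igf2 and its binding protein Igfbp2 thus stood above Enpp2 in the forebrain, and below it in the adult hippocampus.

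Between adult libraries Ttr was anything from a trace to among the strongest transcripts of the tissue. On the scale of log2 CPM it was between 3.41 and 12.49, a 539-fold range, or 402 to 503911 counts. The libraries fell into a lower cluster of 22, from 3.41 to 7.21, and a higher cluster of 25, from 8.65 to 12.49, with no library between. Every one of the 6 adult groups had libraries in both clusters. In log2 CPM (lowest, median and highest), Ttr was at 6.36, 9.79 and 12.18 in male euploid, 3.76, 6.53 and 12.23 in male Ts65Dn and 3.41, 9.34 and 11.53 in male Ts65Dn;Brwd1+/- mice. In females it was at 4.32, 8.95 and 12.49 in euploid, 3.77, 8.28 and 12.36 in Ts65Dn and 4.92, 10.70 and 12.37 in Ts65Dn;Brwd1+/- mice. All groups thus overlapped over most of the range, and the spread within a group was larger than any distance between the medians.

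**Figure D1:**
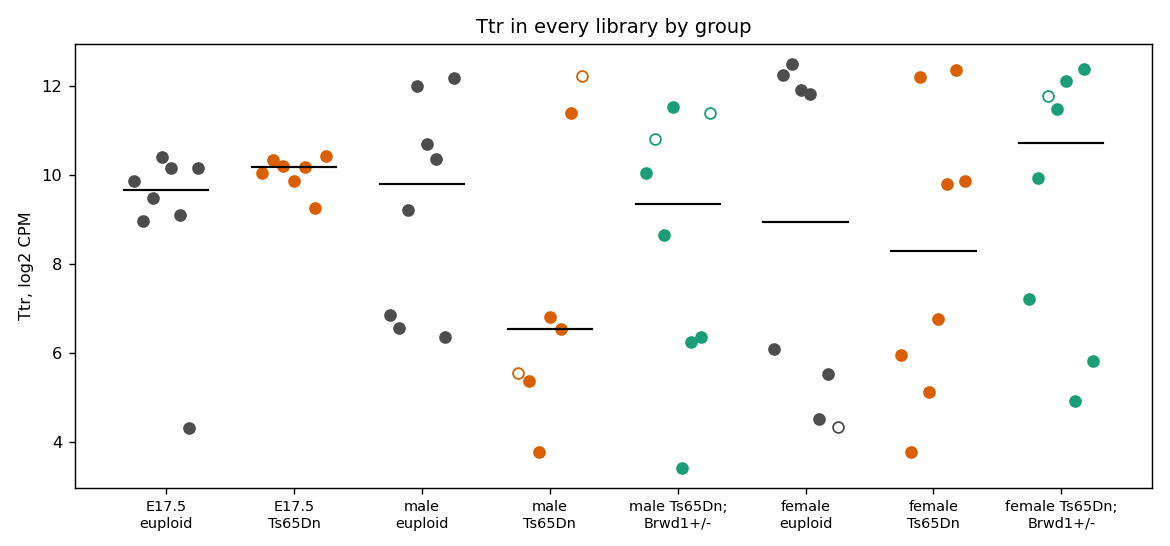
Ttr in log2 CPM (vertical axis) in each library of the 8 groups (horizontal axis); each point is a library, hollow points are the 6 libraries that go against their labels and bars are group medians. Adult libraries spread from 3.41 to 12.49 with a gap between 7.21 and 8.65 in every group's range, whereas all E17.5 libraries but 1 lie between 8.96 and 10.42.

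In the forebrain at E17.5, Ttr was far more even. It was at 9.24, 10.19 and 10.42 log2 CPM (lowest, median and highest) in Ts65Dn embryos and at 4.31, 9.67 and 10.39 in euploid embryos. The low value was that of euploid embryo 7, with 424 counts, and the other euploid embryos were at 8.96 or above. Embryo 7 also had the lowest Kcne2, Clic6 and Folr1 of the forebrain libraries and no count of Tmem72. The embryos' slopes on Ttr and the main log2 fold changes of members are therefore given with and without it. Values for markers of other cells, for other measures of content and for distances from the line of the euploid libraries include it.

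Every other member followed Ttr in the adult hippocampus. A slope on the log2 CPM of Ttr was fitted for each gene over the 47 libraries, with a term for each of the 6 groups (edgeR, adjusted p under 0.1). All 31 members other than Ttr had a positive slope that passed, against 14.1% of all genes tested, and none a negative one. The slopes, in log2 units of the gene per log2 unit of Ttr, had a median of 0.55 and ran from 0.17 for Cab39l to 0.94 for Slc4a5, while the median of all genes was -0.00124. In males alone and in females alone, 31 of 31 passed as well, against 875 of 16850 and 1649 of 17145 genes with a positive slope. The same 31 passed without the 6 libraries that go against their labels (2012 of 17518 genes). They also passed without the 2 libraries farthest from the median Ttr (2317 of 17496 genes).

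**Figure D2:**
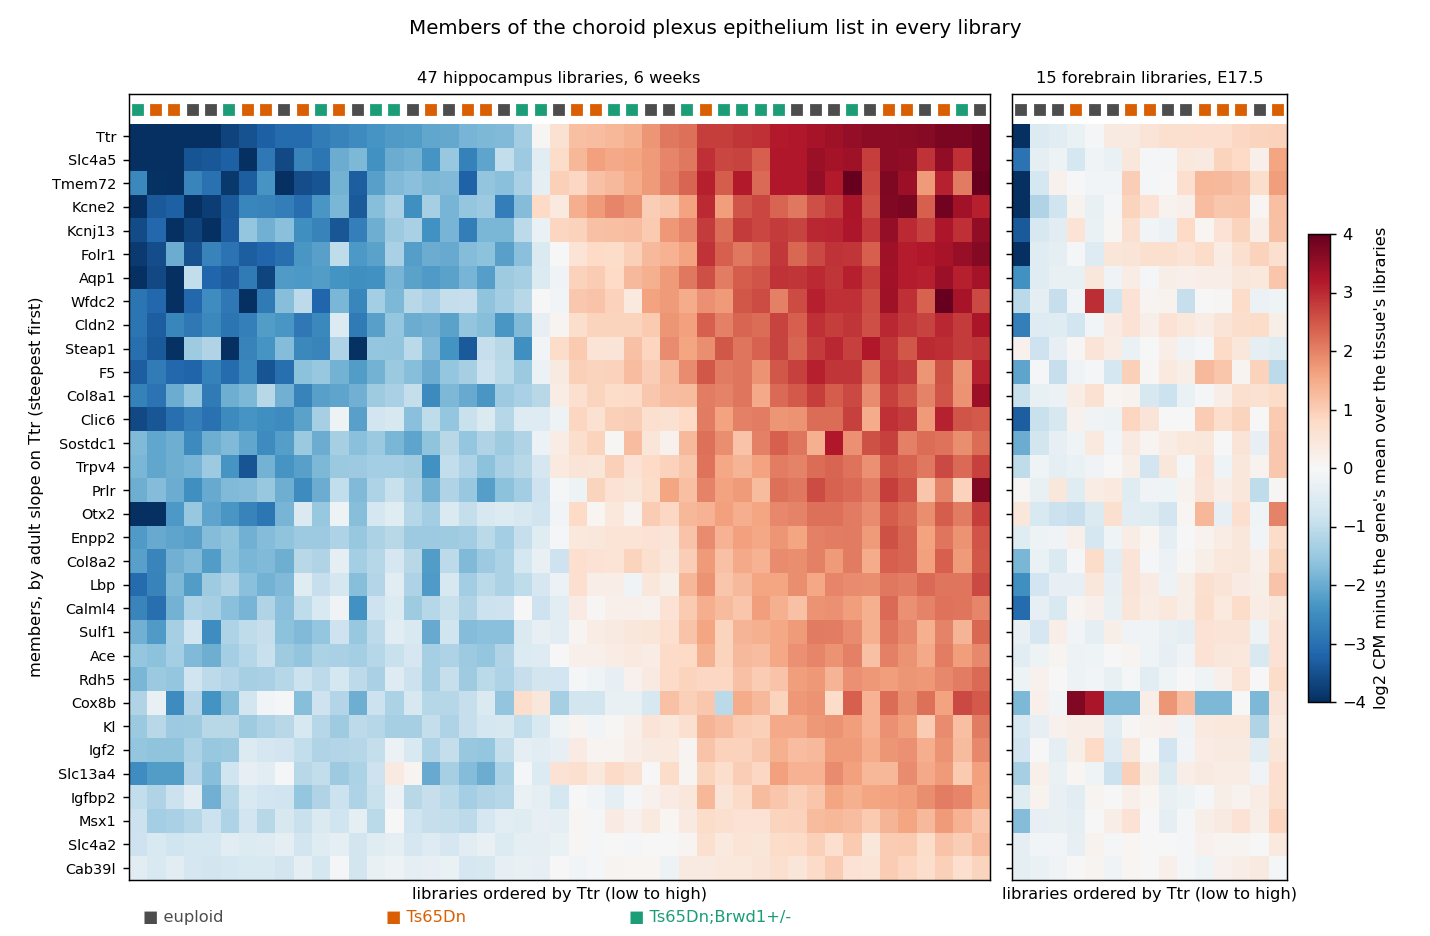
Each row is a member, ordered by its adult slope on Ttr, and each column a library, ordered by Ttr from low to high, with squares for genotype; colours give log2 CPM minus the gene's mean over the libraries of its tissue, limited to 4 in either direction. In the 47 adult libraries all rows turn from below to above their mean along the Ttr order, while in the 15 E17.5 libraries the leftmost library (euploid embryo 7) stands out and the others differ little.

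The ion and water transport genes ranged from the steepest slope of all members to nearly the shallowest. Slc4a5, a sodium bicarbonate cotransporter of the apical membrane, rose with Ttr at 0.94 ± 0.02 (SE), Kcne2, an accessory subunit of potassium channels, at 0.87 ± 0.02, and Kcnj13, the inward rectifier Kir7.1, at 0.84 ± 0.02. The water channel gene Aqp1 was at 0.82 ± 0.03. Clic6, of the chloride intracellular channel family, followed at 0.64 ± 0.02 and the osmosensitive cation channel gene Trpv4 at 0.58 ± 0.02. The sulfate transporter gene Slc13a4 was at 0.36 ± 0.03 and the anion exchanger gene Slc4a2 at 0.20 ± 0.01. As a group, the 8 channels and transporters had a median slope of 0.73.

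The level of these genes was near the limit of counting where Ttr was low. Slc4a5 had 2 counts in its lowest adult library and 4885 in its highest. Aqp1 ran from 8 to 3798 counts, and Kcne2 from 5 to 3827. Slc4a2, in contrast, was never under 1312 counts, and its highest level was 4.13-fold its lowest, against 400-fold for Kcne2. The slopes rank how far a gene's reads followed Ttr, and not how much of it the epithelium makes.

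The receptors, barrier and other surface proteins had a median slope of 0.74. Tmem72, which encodes a transmembrane protein, was at 0.92 ± 0.03, the folate receptor gene Folr1 at 0.82 ± 0.02, the tight junction gene Cldn2 at 0.77 ± 0.02 and Steap1, of a family of metalloreductases, at 0.74 ± 0.03. The prolactin receptor gene Prlr (0.58 ± 0.03), the angiotensin-converting enzyme gene Ace (0.43 ± 0.02) and the Klotho gene Kl (0.39 ± 0.02), whose product is a co-receptor for FGF23, rose less steeply. Among the 7 secreted proteins other than Ttr, Wfdc2, of a protease inhibitor family, was at 0.78 ± 0.03 and the coagulation factor V gene F5 at 0.74 ± 0.02. The BMP and Wnt antagonist Sostdc1 was at 0.59 ± 0.03, Enpp2, which makes the lipid mediator lysophosphatidic acid, at 0.53 ± 0.01 and the lipopolysaccharide-binding protein gene Lbp at 0.50 ± 0.02. Igf2 (0.37 ± 0.02) and Igfbp2 (0.34 ± 0.02) were the shallowest of the secreted proteins.

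The homeobox genes Otx2, needed for the development of the choroid plexus, and Msx1 rose at 0.55 ± 0.03 and 0.29 ± 0.02. The collagen VIII genes Col8a1 and Col8a2 and the heparan sulfate endosulfatase gene Sulf1 were at 0.64 ± 0.03, 0.52 ± 0.02 and 0.45 ± 0.02. Of the enzymes and other intracellular proteins, Calml4, which encodes a calmodulin-like protein, was at 0.46 ± 0.02, the retinol dehydrogenase gene Rdh5 at 0.40 ± 0.02, Cox8b at 0.40 ± 0.04 and Cab39l at 0.17 ± 0.01. The exons of 7 members overlap those of another counted gene, which can change their counts: Cab39l with Cdadc1, F5 with Gm16548, Igf2 with Igf2os, Kcnj13 with Gigyf2, Otx2 with Otx2os1, Rdh5 with Bloc1s1 and Slc4a2 with Fastk. All of these genes but Bloc1s1 lie on the strand opposite to the member, and the kit does not mark strand.

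Since Ttr was clustered, correlations were computed within each cluster of adult libraries (100000 permutations of the libraries, adjusted over the 17426 genes tested at 0.1). Over the 25 libraries with higher Ttr, Pearson's r of the members with Ttr ran from 0.79 to 0.99 with a median of 0.948, and 31 of 31 passed, against 7.16% of all genes. Cldn2 was at r = 0.99 and Spearman's rho = 0.94, and Folr1 at 0.98 and 0.95. The p-value of both was 1e-05, the smallest that the permutations can give. Over the 22 libraries with lower Ttr, r ran from 0.11 to 0.91, and 6 of 31 passed, against 0.0631% of all genes: Enpp2 (r = 0.91, rho = 0.88), Clic6 (0.89, 0.86), Slc4a5 (0.89, 0.87), F5 (0.83, 0.86), Kcne2 (0.82, 0.76) and Otx2 (0.81, 0.75), each with an adjusted permutation p of 0.0249 for r. By rho, 4 of the 31 passed. Igfbp2, in contrast, was at r = 0.11 (permutation p = 0.620). The members thus followed Ttr less evenly where Ttr was low.

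Genes of the epithelium that are not members moved in the same way, and so did some markers of cells that neighbour it. All 19 of 19 other choroid plexus epithelium genes in a list set from general knowledge had a positive slope on Ttr that passed, with a median of 0.33. Among them were Ecrg4 (0.67 ± 0.02), a secreted peptide precursor, the keratin gene Krt18 (0.56 ± 0.02) and the retinal lipid transporter gene Abca4 (0.47 ± 0.02). Of the ependymal markers, which line the ventricles, 9 of 9 passed with a median slope of 0.16, of the fibroblast markers of meninges and stroma 7 of 8 (0.12), of the border macrophage markers 4 of 5 (0.11) and of the endothelial markers 4 of 7 (0.04). For thalamus and habenula, which border on the dissected region, it was 3 of 7 (median 0.05), and for oligodendrocytes 0 of 5 (0.01). Of 6 hippocampal neuron markers, 3 had a negative slope that passed, with a median of -0.02. No member had a slope below that of the median ependymal marker, but the slopes overlapped. The ependymal Cfap126 (0.24) and the endothelial Esm1 (0.29) lay above the members Cab39l (0.17) and Slc4a2 (0.20). The part of these other cells in the members' slopes was not tested.

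Among all genes that are not members, those most like Ttr over the 47 adult libraries (Pearson's r of log2 CPM, a ranking only) were Ecrg4, Krt18, Prr32, Abca4, Rbm47, Slc2a12, Tmprss11a, Sema3b, Pcolce and Drc7. Within the cluster of higher Ttr their r was between 0.87 (Abca4) and 0.99 (Ecrg4). Within that of lower Ttr it was between 0.50 (Abca4) and 0.89 (Prr32). In the 15 forebrain libraries the list was Prr32, Slco1a4, Car12, Ecrg4, Cldn1, Fam81b, Wfikkn2, Tinagl1, Scara5 and Klk4. Without euploid embryo 7 their r was between 0.27 (Fam81b) and 0.87 (Ecrg4). Ecrg4 and Prr32 were in both lists.

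In the embryos, fewer members followed Ttr. With terms for genotype, 12 of 30 had a positive slope that passed (edgeR, adjusted p under 0.1), against 0.146% of all genes tested, and the median slope of the 30 was 0.24. The 12 were, in order of slope, Tmem72 (1.06 ± 0.15), Folr1 (0.89 ± 0.06), Kcne2 (0.78 ± 0.05), Kcnj13 (0.61 ± 0.10), Cldn2 (0.59 ± 0.07), Slc4a5 (0.58 ± 0.10), Clic6 (0.57 ± 0.04), Calml4 (0.56 ± 0.06), Aqp1 (0.48 ± 0.06), Lbp (0.47 ± 0.08), Sostdc1 (0.38 ± 0.07) and Msx1 (0.33 ± 0.07). Steap1, Prlr, Enpp2 and Otx2, with adult slopes between 0.53 and 0.74, had slopes of -0.02 ± 0.09, -0.00181 ± 0.08, 0.06 ± 0.04 and -0.03 ± 0.15 in the embryos, and none of these passed. Without euploid embryo 7, Otx2 had the steepest slope of the members, at 1.11 ± 0.46. Steap1 was then at 0.25 ± 0.30, Prlr at 0.03 ± 0.27 and Enpp2 at 0.15 ± 0.12, and again none passed. The difference between the tissues was not tested.

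These slopes lean on euploid embryo 7. Without it, 3 of 30 members passed: Kcne2 (0.90 ± 0.12, adjusted p = 0.0174 by edgeR), Folr1 (0.87 ± 0.13, adjusted p = 0.0382) and Clic6 (0.62 ± 0.10, adjusted p = 0.0944). These were also the 3 genes called among all tested (0.0182%). Without the 2 libraries farthest from the median Ttr, 0 of 30 passed, and with a replicate block 7 of 30 passed, against 0.0793% of all genes. The correlations over the 14 embryos other than embryo 7 ran from -0.01 to 0.91, and 0 of 30 passed after adjustment over 16394 genes. The largest were those of Folr1 (r = 0.91, rho = 0.78, permutation p = 1.4e-04 for r) and Cldn2 (r = 0.89, rho = 0.69, permutation p = 1.9e-04). The range of Ttr left over these embryos, from 8.96 to 10.42 log2 CPM, is small beside the adult range.

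**Figure D3:**
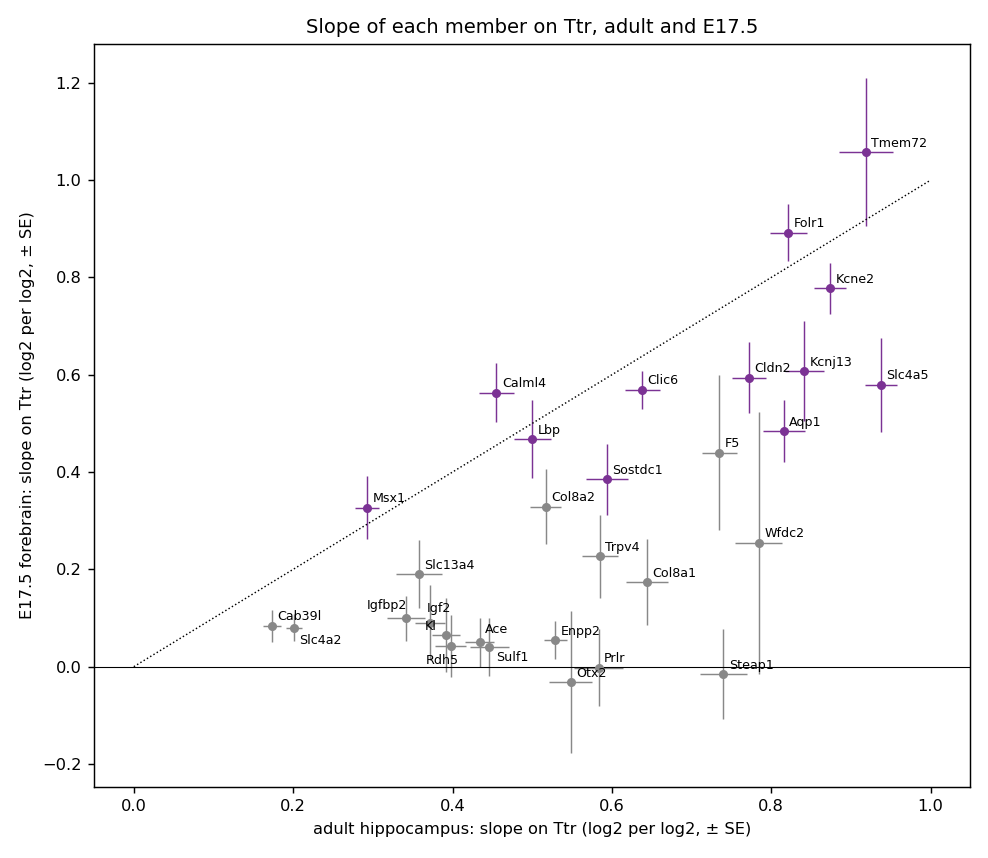
Slope on Ttr of 30 members in adult hippocampus (horizontal) and E17.5 forebrain (vertical), in log2 per log2 with SE as bars; purple marks the 12 that passed at E17.5 and the dotted line equal slopes. Most members lie under the line, with Otx2, Prlr and Steap1 near 0 in the forebrain, and Tmem72, Folr1, Calml4 and Msx1 on or above it. The forebrain slopes include euploid embryo 7, without which that of Otx2 is 1.11.

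Comparing Ts65Dn with euploid embryos asks which members the trisomy changes before birth. Enpp2 rose, from 5.27, 5.77 and 5.96 log2 CPM (lowest, median and highest) in euploid to 6.04, 6.25 and 6.71 in Ts65Dn embryos. The groups did not overlap, and the log2 fold change was 0.59 ± 0.11 (SE; edgeR, adjusted p = 0.00791). It was the only 1 of 31 members to pass, against 1.35% of all genes tested. Its slope on Ttr in the embryos was 0.06 ± 0.04 and did not pass, and which cells its rise came from was not tested. The other members leaned the same way without passing: 30 of 31 had a log2 fold change above 0, with a median of 0.50, against -0.01 for all genes. An unadjusted p under 0.05 (edgeR) was found for 13 of 31 members and for 1981 of all 16395 genes. Ace was at 0.49 ± 0.13 (adjusted p = 0.119), Slc13a4 at 0.71 ± 0.20 (adjusted p = 0.136) and Ttr itself at 0.45 ± 0.52 (adjusted p = 0.714). Without euploid embryo 7, Enpp2 still passed, at 0.57 ± 0.11 (edgeR, adjusted p = 0.0224). Kcne2 and Clic6 then passed as well, with values given below. Ace was then at 0.46 ± 0.14 (adjusted p = 0.204), Slc13a4 at 0.61 ± 0.17 (adjusted p = 0.157) and Ttr at 0.27 ± 0.23 (adjusted p = 0.641). The median of the members was then 0.42, with 30 of 31 above 0.

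Markers of some other cells moved in the same comparison over all 15 libraries. Of the border macrophage markers 5 of 5 had a log2 fold change above 0 and 3 passed (median 0.54), a larger share than the 1 of 31 members, and of the fibroblast markers 7 of 8 were above 0 and 2 passed (median 0.42). Of the other choroid plexus epithelium genes 15 of 18 were above 0 and 1 passed (median 0.28). Of the ependymal markers 4 of 8 were above 0 and 1 passed (median -0.10), and of the endothelial markers 5 of 7 were above 0 and 0 passed (median 0.15). The summed CPM of the fibroblast list was 235 to 1611 in euploid and 436 to 785 in Ts65Dn embryos. For border macrophages it was 32.97 to 53.25 with a median of 40.4 and 49.1 to 82.7 with a median of 53.4. For ependymal cells it was 28.4 to 81.3 and 30.5 to 65.5, and for endothelium 104.6 to 144.6 and 107.2 to 146.7. The ranges of all 4 sums overlapped between the genotypes. The lists' part in the members' values was not tested.

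Kcne2 and Clic6 stood higher than the rest of the members in Ts65Dn embryos. Kcne2 was at -0.92, 3.17 and 3.55 log2 CPM (lowest, median and highest) in euploid and at 3.48, 4.41 and 4.58 in Ts65Dn embryos. Clic6 was at 1.14, 4.27 and 4.46 and at 4.62, 5.30 and 5.49. The groups did not overlap for Clic6, and for Kcne2 the lowest Ts65Dn embryo lay within the euploid range. By genotype alone neither passed (Kcne2 1.31 ± 0.39, adjusted p = 0.166; Clic6 1.18 ± 0.32, adjusted p = 0.131, edgeR), but without euploid embryo 7 both did (Kcne2 1.13 ± 0.22, adjusted p = 0.0224; Clic6 1.01 ± 0.16, adjusted p = 0.00336).

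To compare their dosage at equal choroid plexus content, Ttr was added to the fit. Both then rose clearly in Ts65Dn embryos: Clic6 by 0.84 ± 0.09 (adjusted p = 7.17e-05) and Kcne2 by 0.91 ± 0.11 (adjusted p = 2.16e-04) on the log2 scale. With Enpp2 at 0.54 ± 0.11 (adjusted p = 0.034), 3 of 30 members passed, against 0.744% of all genes. Without embryo 7 the values were 0.83 ± 0.09, 0.88 ± 0.11 and 0.52 ± 0.12, and the same 3 passed. Since Enpp2 did not follow Ttr in the embryos (slope 0.06 ± 0.04), the Ttr term does not set it at equal choroid plexus content. The other tested genes of the triplicated segments had a median of 0.55 with quartiles of 0.47 and 0.69, and the 28 members outside the segments a median of 0.28. At equal Ttr, Kcne2 and Clic6 thus lay above the upper quartile of the segment genes. The size rested on the measure of content: with the mean log2 CPM of 14 core choroid plexus genes outside the segments (Ttr, Folr1, Kl, Kcnj13, Slc4a5, Otx2, Cldn2, Sostdc1, F5, Prlr, Calml4, Tmem72, Steap1 and Slc13a4) in place of Ttr, both still passed, at 0.48 for Kcne2 and 0.51 for Clic6, near the median of the segment genes.

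**Figure D4:**
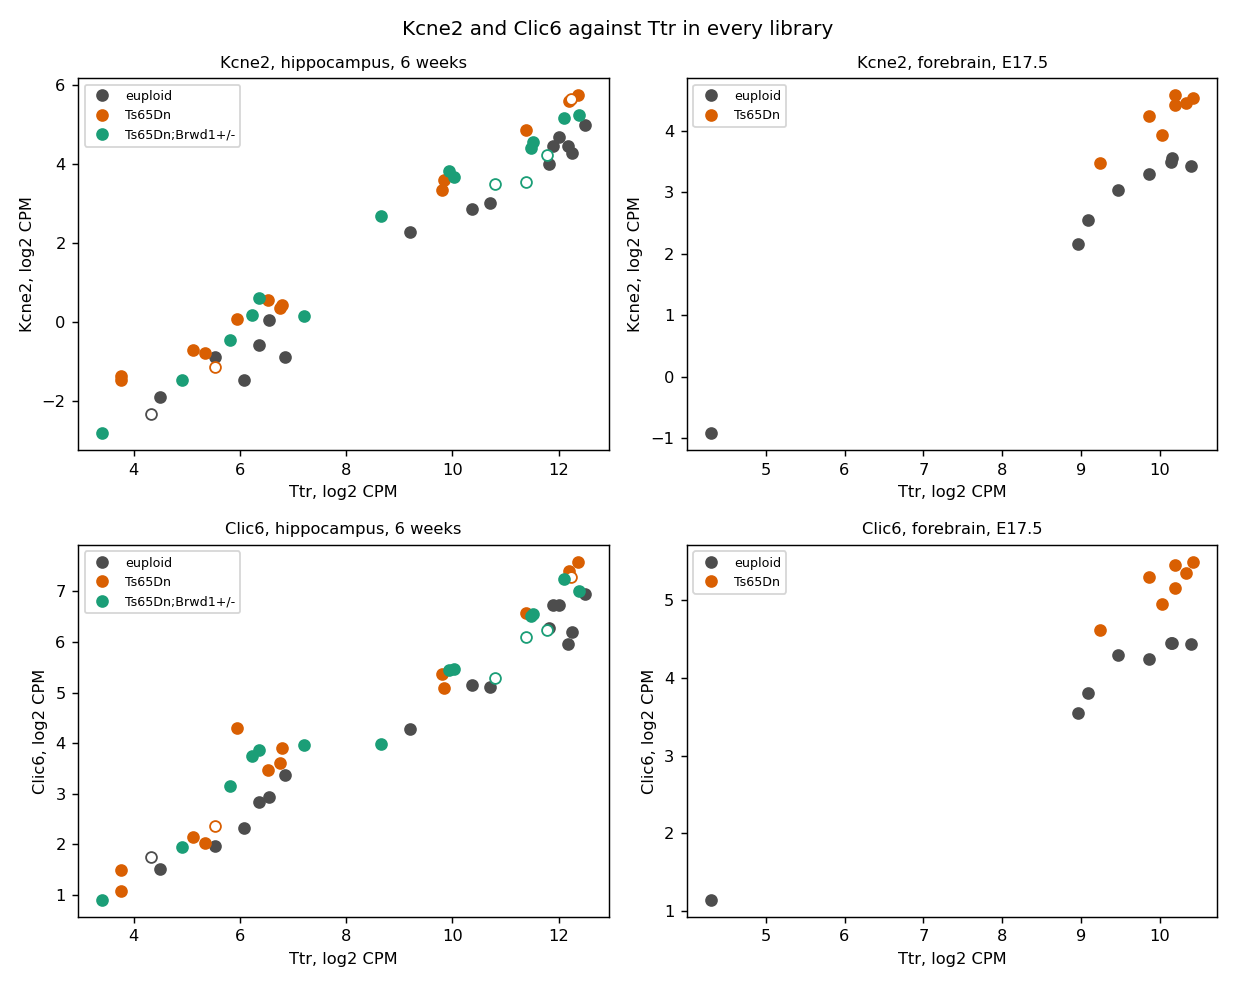
Kcne2 (top) and Clic6 (bottom) against Ttr, all in log2 CPM, in each adult (left) and E17.5 (right) library; colour gives genotype and hollow points are libraries that go against their labels. In the embryos all 7 Ts65Dn libraries lie above the line of the euploid ones, by 0.61 to 1.15 for Kcne2 and by 0.60 to 1.05 for Clic6, whereas the adult Clic6 points of the genotypes overlap.

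The distance of each library from a straight line through the euploid libraries of its tissue shows the same data without a test. Among the embryos, Kcne2 was 0.61 to 1.15 above the line in the 7 Ts65Dn libraries, with a median of 0.93 (log2), and between -0.35 and 0.15 in the 8 euploid ones. Clic6 was 0.60 to 1.05 above it with a median of 0.83, against -0.20 to 0.26 in euploid embryos. For neither gene did the groups overlap.

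In the adult hippocampus, comparing the genotypes within a sex asks whether the trisomy, or the return of Brwd1 to its normal copy number, changes the members. By genotype alone, 0 of 32 members passed in any of the 6 comparisons, and 0 had an unadjusted p under 0.05 (edgeR). Between 604 and 2643 of 17146 genes had such a p in the female comparisons. Of all genes tested, 0.795% passed in male Ts65Dn vs euploid, 0% in male Ts65Dn;Brwd1+/- vs Ts65Dn and 0.576% in male Ts65Dn;Brwd1+/- vs euploid mice. In females the shares were 3.17%, 0% and 0.729%. The 3 comparisons of a sex share their animals, so their values are not independent of each other. Ttr differed by -0.51 ± 1.27, 0.02 ± 1.27 and -0.49 ± 1.23 in males and by -0.61 ± 1.27, 0.54 ± 1.27 and -0.07 ± 1.27 in females, in the same order. Without the 6 libraries that go against their labels, Ttr differed by -1.44 ± 1.47, 0.38 ± 1.49 and -1.06 ± 1.36 in males and by -0.79 ± 1.30, 0.39 ± 1.30 and -0.40 ± 1.34 in females. Each difference was smaller than its standard error, with and without these libraries, so a change of Ttr by genotype was not detectable with this spread of content.

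The members with the smallest p-values did not pass either. In males they were Steap1 (-1.07 ± 0.96), Cab39l (-0.21 ± 0.25) and Sostdc1 (-0.75 ± 0.92) in Ts65Dn vs euploid, Steap1 (0.55 ± 0.95), Cab39l (0.13 ± 0.25) and Cox8b (-0.28 ± 0.56) in Ts65Dn;Brwd1+/- vs Ts65Dn, and Slc13a4 (-0.49 ± 0.61), Prlr (-0.54 ± 0.82) and Igf2 (-0.36 ± 0.56) in Ts65Dn;Brwd1+/- vs euploid mice. In females they were Cox8b (-0.81 ± 0.73), Rdh5 (-0.67 ± 0.65) and Prlr (-0.83 ± 0.90), then Cox8b (0.85 ± 0.73), Slc13a4 (0.43 ± 0.58) and Rdh5 (0.45 ± 0.65), then Prlr (-0.65 ± 0.90), Kcne2 (0.51 ± 1.10) and Col8a1 (-0.39 ± 0.92), in the same order. The smallest adjusted p among all of these was 0.664. The 30 members outside the segments had medians of -0.25, -0.01 and -0.32 in males and -0.41, 0.28 and -0.07 in females. Over all 32 members the medians were -0.23, -0.02 and -0.30 in males and -0.40, 0.26 and -0.07 in females. Without the 6 libraries that go against their labels they moved to -0.80, 0.21 and -0.71 in males and to -0.56, 0.13 and -0.40 in females, with 0 of 32 members above 0 in male Ts65Dn vs euploid mice and 0 of 32 passing in any of the 6 comparisons.

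Kcne2 and Clic6 also overlapped widely between the adult groups by level. Kcne2 was at -0.89, 2.56 and 4.69 log2 CPM (lowest, median and highest) in male euploid, -1.48, 0.42 and 5.64 in male Ts65Dn and -2.82, 3.09 and 4.55 in male Ts65Dn;Brwd1+/- mice. In females it was at -2.33, 1.55 and 4.99, at -1.37, 1.84 and 5.73, and at -1.49, 4.03 and 5.24. Clic6 was at 2.83, 4.70 and 6.73, at 1.08, 3.46 and 7.28, and at 0.90, 4.64 and 6.55 in males, and at 1.52, 4.26 and 6.94, at 1.49, 4.69 and 7.58, and at 1.95, 5.85 and 7.24 in females. The ranges overlapped for every pair of groups. By genotype alone the log2 fold changes for Ts65Dn vs euploid were 0.46 ± 1.09 and 0.47 ± 1.10 for Kcne2 and 0.23 ± 0.88 and 0.25 ± 0.92 for Clic6 in males and females. Without the 6 libraries that go against their labels the sign turned in males, to -0.43 ± 1.21 for Kcne2 and -0.48 ± 0.95 for Clic6, while in females the values were 0.29 ± 1.13 and 0.08 ± 0.95.

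At equal Ttr the standard errors of both genes fell to between 0.15 and 0.22, and Kcne2 passed in 1 of the sexes. In females, Kcne2 rose by 0.995 ± 0.16 in Ts65Dn vs euploid mice (edgeR, adjusted p = 0.00104) and Clic6 by 0.72 ± 0.20 (adjusted p = 0.0544). These 2 of 31 members passed, against 5.23% of all genes. In males, Kcne2 was at 0.84 ± 0.21 (adjusted p = 0.106) and Clic6 at 0.54 ± 0.22 (adjusted p = 0.487). There 0 of 31 members passed, against 0.546% of all genes. An unadjusted p under 0.05 (edgeR) was found for 6 of 31 members and for 1365 of all 16850 genes. Besides Kcne2, the smallest p-values in males were those of Slc4a2 (0.34 ± 0.09, adjusted p = 0.124) and Folr1 (0.50 ± 0.16, adjusted p = 0.311). The other segment genes had a median of 0.49 in males and 0.53 in females, and the 29 members outside the segments a median of 0.15 and -0.05.

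The libraries that go against their labels bear on the males. Without the 6 libraries, Kcne2 passed in male Ts65Dn vs euploid mice at 0.90 ± 0.18 (adjusted p = 0.0125) and in females at 1.01 ± 0.16 (adjusted p = 8.58e-04). Leaving out 1 library at a time also gave a call in males without Ts65Dn B145 (0.91), without Ts65Dn;Brwd1+/- T35 (0.86), without B138 (0.85) and without B24 (0.85), the last 3 of which belong to neither group compared but share the fit, with its slope on Ttr and its spread. Clic6 without the 6 libraries was at 0.51 ± 0.24 in males (adjusted p = 0.554) and 0.78 ± 0.21 in females (adjusted p = 0.0609). Its call in females was lost without Ts65Dn B135 (0.70) or euploid B65 (0.68).

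Returning Brwd1 to its normal copy number leaves Kcne2 and Clic6 in 3 copies. In Ts65Dn;Brwd1+/- vs euploid mice at equal Ttr, Kcne2 was at 0.66 ± 0.20 in males (adjusted p = 0.184) and 0.58 ± 0.16 in females (adjusted p = 0.128), and Clic6 at 0.45 ± 0.21 and 0.43 ± 0.19 (adjusted p = 0.444 and 0.408). In these comparisons 0 of 31 members passed in either sex, against 0.611% and 0.776% of all genes. At an unadjusted p under 0.05 (edgeR) there were 2 of 31 members in each sex. Of all genes, 1817 of 16850 in males and 1942 of 17145 in females reached it. Without the 6 libraries that go against their labels, Kcne2 passed in both sexes, at 0.92 ± 0.16 in males (adjusted p = 0.00222) and 0.66 ± 0.16 in females (adjusted p = 0.0633). In males the call also came without T35 alone (0.81), and in females without B136 (0.65), B113 (0.63) or euploid B125 (0.52). Clic6 without the 6 libraries was at 0.59 ± 0.22 in males and 0.53 ± 0.21 in females, and passed in neither.

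Against Ts65Dn mice, Kcne2 in Ts65Dn;Brwd1+/- mice was at -0.18 ± 0.22 in males (adjusted p = 0.908) and -0.42 ± 0.15 in females (adjusted p = 0.999). Clic6 was at -0.09 ± 0.22 and -0.29 ± 0.19 (adjusted p = 0.970 and 0.999). Here 0 of 31 members and 0% of all genes passed in either sex. An unadjusted p under 0.05 (edgeR) was found for 2 members and 1172 of 16850 genes in males. In females it was found for 1 member and 713 of 17145 genes. Without the 6 libraries the values in males were 0.02 ± 0.18 for Kcne2 and 0.08 ± 0.25 for Clic6, and in females -0.35 ± 0.15 and -0.25 ± 0.20. A difference between the sexes in Ts65Dn vs euploid mice was tested as an interaction at equal Ttr. It was 0.13 ± 0.27 for Kcne2 and 0.17 ± 0.29 for Clic6 (female minus male), and 0 of 31 members and 0% of all genes passed. An unadjusted p under 0.05 (edgeR) was found for 5 of 31 members and for 1918 of all 17426 genes. The interaction was fitted with the 6 libraries only as labelled, among them B88 and B85, whose Xist and Ddx3y went against the labelled sex.

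**Figure D5:**
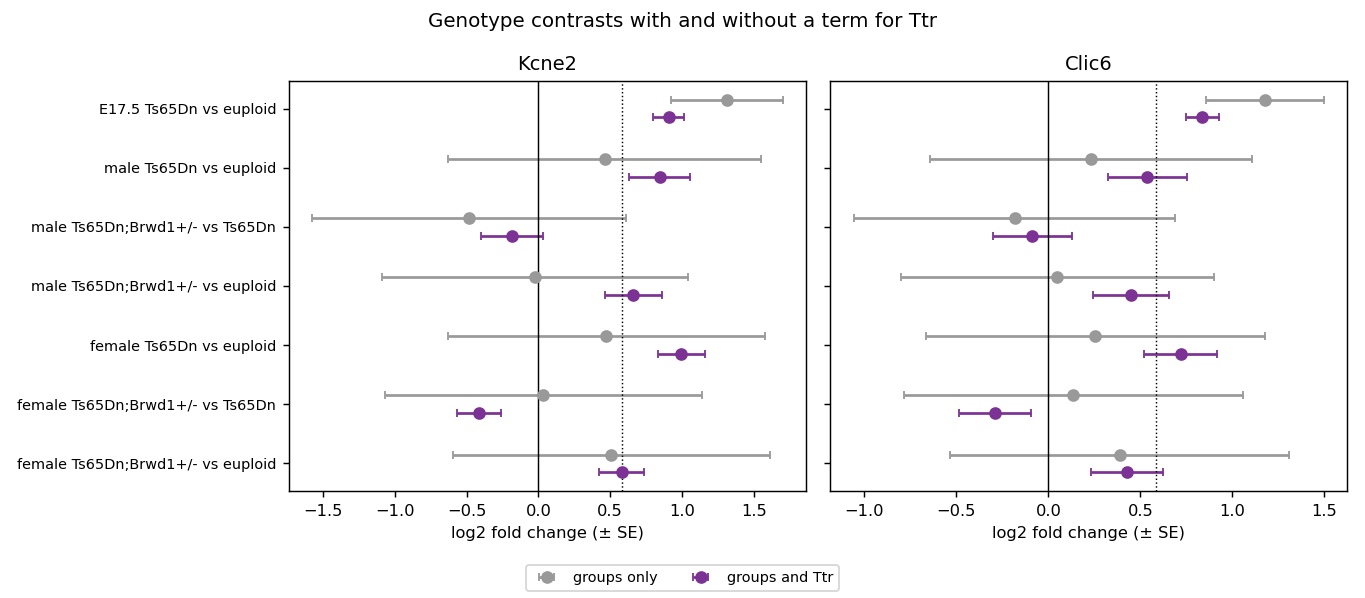
Log2 fold change (horizontal axis, with SE as bars) of Kcne2 and Clic6 in the 7 genotype comparisons, by groups only (grey) and with Ttr in the fit (purple); the solid line marks no change and the dotted line 1.5-fold. With Ttr in the fit the Ts65Dn vs euploid values are 0.91, 0.84 and 0.995 for Kcne2 and 0.84, 0.54 and 0.72 for Clic6 in embryos, males and females, and the bars of the adult comparisons shrink.

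Measured from the line of the 16 adult euploid libraries, Kcne2 was above it in 14 of 14 Ts65Dn libraries, by 0.57 to 1.46 with a median of 1.03 (log2), when B145 is left out. The euploid libraries themselves lay between -0.75 and 0.43. In Ts65Dn;Brwd1+/- mice, without T35, B138 and B136, it was between -0.02 and 1.28 with a median of 0.62, and above the line in 12 of 13. The 4 libraries left out lay at 0.13 (B145), -0.27 (T35), 0.19 (B138) and 0.08 (B136), within the euploid range. Clic6 had a wider spread: -0.08 to 1.82 with a median of 0.61 in Ts65Dn, -0.20 to 1.11 with a median of 0.53 in Ts65Dn;Brwd1+/- and -0.47 to 0.48 in euploid libraries. For Clic6 the groups overlapped, and for Kcne2 the Ts65Dn libraries did not overlap the euploid ones.

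As a simpler measure, the log2 ratio of each gene to Ttr was compared between genotypes with 2-sided exact permutation tests, adjusted over the 14 tests. By these exact tests the ratio of Kcne2 was higher in Ts65Dn than in euploid animals in embryos (by 0.67, p = 0.0101, adjusted p = 0.0471), in males (by 1.09, p = 9.32e-04, adjusted p = 0.0131) and in females (by 1.06, p = 0.00435, adjusted p = 0.0305). The call in embryos was lost when any 1 of 13 of the 15 libraries was left out (all but euploid embryo 7 and Ts65Dn embryo 1), with adjusted exact p-values up to 0.0658. In males the Kcne2 ratio was -7.74, -7.42 and -6.53 (lowest, median and highest) in euploid and -6.69, -6.38 and -5.24 in Ts65Dn mice, so that the groups overlapped slightly. Against the mean of the core choroid plexus genes in place of Ttr, the difference in males was 0.40 and no longer passed, whereas those of embryos and females did. With a prior count of 2, those of embryos (0.65) and females (1.03) no longer passed. In Ts65Dn;Brwd1+/- vs Ts65Dn mice the ratio of Kcne2 differed by -0.67 in females (exact p = 0.0188, adjusted p = 0.0658). In males it differed by -0.35 (adjusted exact p = 0.363). The female difference passed in 4 of 16 tests that left out 1 library, and was -0.19 against the core genes (adjusted exact p = 0.667). In Ts65Dn;Brwd1+/- vs euploid mice the ratio of Kcne2 was higher by 0.74 in males (adjusted exact p = 0.0918) and by 0.40 in females (adjusted exact p = 0.360). Without the libraries that go against their labels, the difference in males was 1.07 and passed (adjusted exact p = 0.0163). In Ts65Dn vs euploid mice the Kcne2 difference was then 1.25 in males and 1.14 in females. Both passed (adjusted exact p = 0.0163 and 0.0174). Against Ttr, none of the 7 comparisons of Clic6 passed at 0.05, the nearest being male Ts65Dn vs euploid mice (higher by 1.18, exact p = 0.0426, adjusted p = 0.0994). Against the mean of the core genes, Clic6 passed in Ts65Dn vs euploid embryos (0.67, adjusted exact p = 0.00218) and females (0.72, adjusted exact p = 0.00218) and in female Ts65Dn;Brwd1+/- vs euploid mice (0.54, adjusted exact p = 0.0274). Since both genes had slopes under 1 on Ttr, their ratio to it was higher in libraries with little Ttr, and so moved with content as well as with genotype.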

How the data were processed

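The authors made single-read libraries from polyA RNA with an unstranded kit, joined the reads of 2 flow cells, aligned them to mm10 with HISAT2 and deposited raw read counts per gene from featureCounts. The paper names Ensembl annotation, whereas the rows of the deposited counts carry Entrez gene ids. Exon lengths and gene overlaps given here came from the GENCODE annotation, which can differ from the gene models counted. The submitters' processing notes name HISAT2 2.1.0, featureCounts 2.0.1 and DESeq2 2.11.40.6. Totals were 33584456 to 137059172 counts in adult and 14863136 to 62618142 in embryo libraries, so members under 10 counts are imprecise.

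Counts were tested for each tissue and, in adults, each sex with all its groups (edgeR 4.0.16, quasi-likelihood, TMM scaling, filterByExpr, Benjamini-Hochberg adjusted p under 0.1, in R 4.3.3), by group alone and with the log2 CPM of Ttr as a covariate. CPM values used a prior count of 0.5. Slopes on Ttr came from the same model over a tissue. The SE is the log2 fold change over the square root of F. Correlations and exact permutation tests of log2 ratios were computed with NumPy 2.4.6, and ranks with SciPy 1.17.1. The steps were tested on simulated data. Alternatives used DESeq2 1.42.0, limma 3.58.1, RUVr factors, other scalings and filters, and left out libraries.

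The members, marker lists and tests were chosen with earlier results of these data known. Genes named were Kcne2, Clic6 and Ttr, the 3 members of smallest p in a comparison and any called, the members in order of slope, and the 10 non-members with the highest r with Ttr. Segment bounds came from general knowledge (chromosome 16 from Mrpl39 to its end, chromosome 17 from its start to Pde10a). For embryos the labels do not name the animals, while the paper states that each animal was counted separately, without pooling. The embryos' titles share 2 numbers, each found in both genotypes. The labels do not give their meaning, and they were not a term in the main fits. The p-values measure the spread between libraries. By Xist and Ddx3y, euploid embryos 3 and 6 and Ts65Dn embryos 1, 2 and 7 read as male and the others as female. Sex was not a term in the embryo fits. Promoter entries were used for 25 of the 32 members; a promoter of Clic6 was not used here.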

Additional observations from a re-analysis of the deposited data

Results flagged for a closer look

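Of 56 groups of values over 7 or 8 libraries, 6 held a library far from the others, all of them the same one, euploid E17.5 embryo 7. Chance alone marks about 1 in 20 such groups. In log2 CPM, its Ttr was at 4.31, with the nearest euploid embryo at 8.96, its Kcne2 at -0.92 (nearest 2.16) and its Clic6 at 1.14 (nearest 3.55). The mean log2 CPM of the 14 core choroid plexus genes was 0.0137, with the nearest at 2.02. The log2 ratio to Ttr was highest in this embryo, at -5.23 for Kcne2 (nearest -6.43) and -3.16 for Clic6 (nearest -5.18). The values come from the same library and so are not independent of each other.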

How the results depend on the processing

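Over 45 results, 265 alternatives other than leaving out 1 library were run: 224 kept the direction and the side of the threshold, and the cause of the other changes was not tested. In Ts65Dn vs euploid embryos, the count of members called was 1, and 6 with DESeq2, 2 with upper-quartile scaling, 2 with at least 10 counts in every library, 6 with 1 RUVr factor and 9 with 3. In female Ts65Dn vs euploid mice it was 0, and 1 with 3 RUVr factors. The shares of all genes called under these settings are not given here, so the counts are not a result about the members in particular. Of the 12 slopes called in embryos, 7 were called with a replicate block, 3 without euploid embryo 7 and 0 without the 2 libraries farthest in Ttr. Replicate numbers did not pair the embryos: 3 of 7 same-numbered pairs deviated together at r over 0.1, and 1 was the best match. With this replicate block, 1 member was called by genotype and 2 at equal Ttr, against 121 of 16395 and 60 of 16394 genes. With a block for the number shared in the embryos' titles, 1 and 3 members were called, against 203 of 16395 and 114 of 16394 genes.

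Without the Ttr term, the log2 fold change of Kcne2 was 1.31 in embryos, -0.022 in male Ts65Dn;Brwd1+/- vs euploid, 0.47 in female Ts65Dn vs euploid and 0.035 in female Ts65Dn;Brwd1+/- vs Ts65Dn mice, and that of Clic6 was 1.18 in embryos, 0.25 in female Ts65Dn vs euploid and 0.13 in female Ts65Dn;Brwd1+/- vs Ts65Dn mice. With DESeq2, Kcne2 at equal Ttr passed at 0.83 in male Ts65Dn vs euploid, and at 0.68 in male and 0.57 in female Ts65Dn;Brwd1+/- vs euploid mice. Without the libraries against their labels it was 0.90, 0.92 and 0.66 there, and 0.024 in male Ts65Dn;Brwd1+/- vs Ts65Dn mice, where Clic6 was 0.0801. With the core list in place of Ttr, Kcne2 was 0.80 in female Ts65Dn;Brwd1+/- vs euploid mice.

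The difference in the ratio of Kcne2 was 0.65 in embryos and 1.03 in female Ts65Dn vs euploid mice with a prior count of 2 (neither passed), 0.40 in male Ts65Dn vs euploid and 0.0399 in male Ts65Dn;Brwd1+/- vs Ts65Dn mice against the core list, and 1.07, which passed, in male Ts65Dn;Brwd1+/- vs euploid mice without the libraries against their labels. That of Clic6 against the core list was 0.67 in embryos, 0.72 in female Ts65Dn vs euploid and 0.54 in female Ts65Dn;Brwd1+/- vs euploid mice, and all 3 passed.

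Leaving out 1 library at a time gave 1 to 3 members called in embryos, given here without the shares of all genes. Kcne2 at equal Ttr was 0.75 to 0.91 in male Ts65Dn vs euploid, 0.55 to 0.81 in male and 0.43 to 0.65 in female Ts65Dn;Brwd1+/- vs euploid mice, and Clic6 was -0.22 to 0.017 in male Ts65Dn;Brwd1+/- vs Ts65Dn (above 0 without B88) and 0.50 to 0.81 in female Ts65Dn vs euploid mice. The difference in the ratio of Kcne2 was 0.59 to 0.84 in embryos (its call was lost without any of 13 of the 15 libraries). It was 0.62 to 0.92 in male Ts65Dn;Brwd1+/- vs euploid mice (passing without T35). In female Ts65Dn;Brwd1+/- vs Ts65Dn mice it was -0.77 to -0.52, and passed in 4 of 16 such tests. The difference in the ratio of Clic6 was 0.30 to 0.70 in embryos (passing without euploid embryo 7) and -0.10 to 0.40 in female Ts65Dn;Brwd1+/- vs euploid mice. The low counts of most members where Ttr was low limit their slopes and ratios there.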

Other observations

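In the embryos Otx2 had a wide spread, from 3.26 to 4.75 log2 CPM in euploid and from 3.19 to 6.11 in Ts65Dn embryos, with medians of 3.73 and 3.77; the next highest after Ts65Dn embryo 7 (6.11, 3571 counts) was Ts65Dn embryo 5 at 5.45. Wfdc2 was at 2.68 log2 CPM (95 counts) in euploid embryo 3, whereas the median of euploid embryos was -0.88.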
